A study of Mus musculus with 2 samples.

Results

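The genes described here encode the subunits, activators, inhibitor and assembly chaperones of the proteasome. They are the genes that carry a transcript annotated as protein coding and a symbol beginning with Psma, Psmb, Psmc, Psmd, Psme, Psmf or Psmg. The rule found 50 genes among 55536 in the gene tables, of which 21901 have a protein-coding transcript. One of them, Psmc3ip, matched by its symbol alone: it encodes a recombination factor that was first named for binding Psmc3, and it is no part of the particle. The subunits of the whole constitutive particle, called the 26S proteasome, make up 31 of the 50.

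The samples were gastrocnemius, a large muscle of the calf, of female B6Cast F1 mice, the first generation of a cross between C57BL/6J and CAST/EiJ, and total RNA was sequenced. Both libraries belong to 1 group, replicates 1 and 2, with an age of 18 to 20 months in the sample descriptions, 300 ng of input RNA and synthetic ERCC spike-in RNAs. Neither a treatment nor a targeted allele is named, and there is no second group, so each value below is a level or a difference between 2 libraries of the same kind. The labels number the libraries as biological replicates but give them a shared donor identifier, so the spread between them may not be that of separate animals. Expected counts over genes summed to 38654555 in replicate 1 and 43722892 in replicate 2. The labelled tissue carried its defining markers: the summed level of Acta1, Ckm, Mylpf, Tnnt3 and Pygm was 76820 TPM in replicate 1 and 73510 TPM in replicate 2. The libraries stood apart in markers, most in slow fibre genes: Myh7, Tnnt1, Tnni1, Tnnc1 and Myl2 summed to 287.9 TPM in replicate 1 and 1682 TPM in replicate 2, and all 5 were at least 2-fold higher in replicate 2. The 5 endothelial markers summed to 55.74 and 43.41 TPM and the 5 fibroblast markers to 182 and 179.2 TPM. Their median log2 ratios, replicate 2 over replicate 1, were -0.12 and 0.25. The fibroblast sum rested mostly on Dcn, while Col1a1 went from 9.69 to 28.31 TPM and Lum from 4.72 to 8.62 TPM, both at least 2-fold higher in replicate 2. Whether these differences in markers bear on the proteasome genes was not tested.

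The proteasome is the main protease of the cytosol and nucleus for proteins tagged with ubiquitin. Its 20S core is a barrel of stacked alpha and beta rings with the proteolytic sites inside, and its 19S cap recognises, unfolds and feeds in the substrate, driven by a ring of ATPases. In skeletal muscle it degrades myofibrillar proteins during normal turnover and during wasting. Inducible beta subunits, other caps and dedicated chaperones give the particle variants and guide its assembly.

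Most of the proteasome genes were well expressed in this muscle. Detection was set at 1 TPM in both libraries, where TPM is a level scaled to transcript length and to the library, and 45 of the 50 passed it, against 45.7% of the genes with a protein-coding transcript. The median over the 50 genes was 50.45 TPM in replicate 1 and 43.28 TPM in replicate 2 (46.9 ± 5.07, SD, n = 2). Together they held 0.560% and 0.484% of the TPM of nuclear protein-coding genes (0.522% ± 0.0537, SD, n = 2). Levels of subunits and activators overlapped: the constitutive subunits lay between 22.15 and 147 TPM and the activators Psme1 to Psme4 between 21.95 and 71.38 TPM, while the assembly chaperones, between 3.41 and 10.11 TPM, lay below both.

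**Figure D1:**
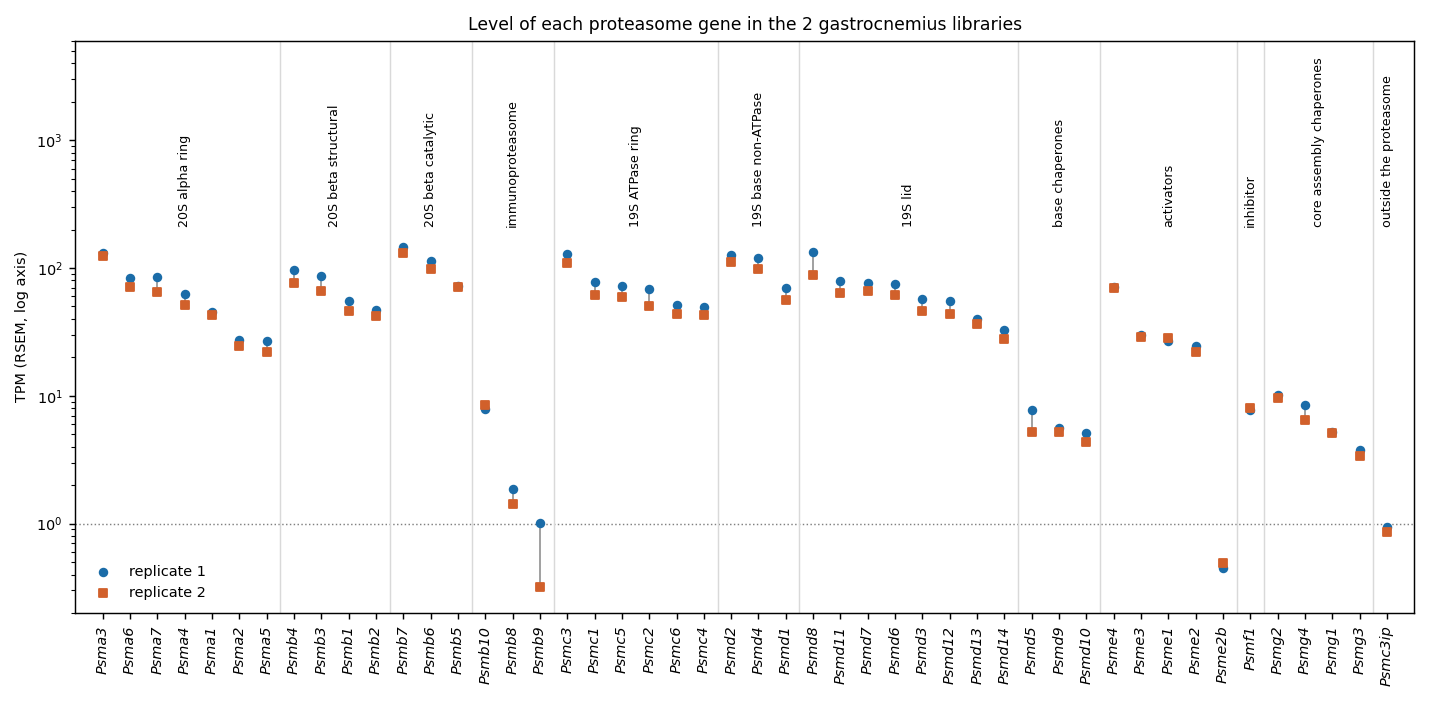
TPM of each proteasome gene by RSEM (y axis, log scale) in replicate 1 (circles) and replicate 2 (squares), grouped by role and ordered by mean level within a role, with a dotted line at 1 TPM. The constitutive 20S and 19S subunits lie between 22.15 and 147 TPM in both libraries, the assembly chaperones between 3.41 and 10.11 TPM, and Psma8 and Psmb11, at or near 0, are not drawn.

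The constitutive 26S subunits lay in a narrow band. Their median was 72.6 TPM in replicate 1 and 61.5 TPM in replicate 2 (67.0 ± 7.87, SD, n = 2), above 92.6% and 91.2% of the 9989 nuclear protein-coding genes that were detected. From the lowest to the highest subunit the level spanned 5.52-fold in replicate 1 and 5.95-fold in replicate 2. The SD of log2 TPM over the 31 subunits was 0.66 and 0.65, against 1.90 and 1.94 over those 9989 genes. The order of the subunits was nearly the same in the libraries, with a Spearman rho of 0.974 over 31 genes, given as a description since the genes share each library's depth and length scaling.

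The alpha ring closes the ends of the core and docks the caps. All 7 of its constitutive genes passed detection, and their median was 62.74 TPM in replicate 1 and 51.32 TPM in replicate 2. By RSEM, Psma3 was the highest at 131.06 and 124.62 TPM, and Psma5 the lowest at 26.62 and 22.15 TPM. Psma3 was thus more than 4-fold above Psma5 in each library, and the ranges of the pair did not overlap. Psma2 lay close to Psma5 at 27.39 and 24.66 TPM, and the spread of that pair across libraries did overlap. Within each library Psma2 was the higher by RSEM. Psma1, Psma4, Psma6 and Psma7 lay in between, from 42.73 to 84.54 TPM. Psma8, the alpha subunit of germ cells, had 0 counts in replicate 1 and 1 in replicate 2, where a count of 0 allows up to 0.0776 CPM (library-scaled counts) in replicate 1.

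Among the beta subunits without a proteolytic site, Psmb4 was the highest by RSEM at 96.44 TPM in replicate 1 and 75.98 TPM in replicate 2. Psmb2 was the lowest at 47.28 and 41.89 TPM, and its range overlapped that of its neighbour Psmb1, at 55.12 and 46.18 TPM. Psmb3 stood at 86.73 and 65.75 TPM. By RSEM gene TPM, the order Psmb4, Psmb3, Psmb1, Psmb2 held in both libraries. By kallisto, a second quantifier, Psmb3 (142.1 TPM) was above Psmb4 (127.0 TPM) in replicate 1 but not in replicate 2. Transcripts annotated as retained intron held 43.2% and 28.1% of the Psmb4 TPM by RSEM. Its coding Psmb4-201 stood at 54.79 and 54.61 TPM, below Psmb3-201 at 85.16 and 65.14 TPM.

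RNA of the catalytic subunits was almost wholly that of the constitutive form. By RSEM, Psmb7, the trypsin-like subunit, was the highest of all 50 genes at 146.98 TPM in replicate 1 and 131.87 TPM in replicate 2. Psmb6, the caspase-like subunit, stood at 113.68 and 98.99 TPM, and Psmb5, the chymotrypsin-like subunit and main target of proteasome inhibitors, at 72.60 and 70.96 TPM. Each has an inducible counterpart that takes its place in the immunoproteasome, the form that interferon gamma induces and that leukocytes express. Psmb10, which replaces Psmb7, stood at 7.85 and 8.49 TPM. Psmb8, which replaces Psmb5, stood at 1.88 and 1.42 TPM, and Psmb9, which replaces Psmb6, at 1.02 and 0.32 TPM.

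By pair, the inducible gene held 5.07% and 6.05% of the Psmb7 and Psmb10 sum, 2.52% and 1.96% of the Psmb5 and Psmb8 sum, and 0.889% and 0.322% of the Psmb6 and Psmb9 sum. Over all 3 pairs it was 3.13% in replicate 1 and 3.28% in replicate 2 (3.20% ± 0.109, SD, n = 2). The steady total hid unequal members: Psmb10 made up most of it and was slightly higher in replicate 2. Psmb9 rested on 21 counts in replicate 1 and 9 in replicate 2, a ratio of 0.420 (95% counting interval 0.169 to 0.956). These shares use the TPM of whole genes, noncoding transcripts included. By RSEM the protein-coding Psmb10-201 held only 24.1% and 17.4% of the Psmb10 TPM, at 1.89 and 1.48 TPM. It was thus lower in replicate 2, and the total rested mostly on transcripts not annotated as coding. Psmb11, the beta subunit of the thymus cortex, had 0 counts in both libraries, which allows up to 0.0776 and 0.0686 CPM. In a piece of whole muscle, fewer cells of a type and less RNA per cell cannot be told apart.

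Of 13 leukocyte markers, 8 passed detection. Their summed level was 45.79 TPM in replicate 1 and 32.34 TPM in replicate 2, and the T cell gene Cd3e was at 0 counts in both. Of the 10 with enough counts for a ratio, 8 were lower in replicate 2, with a median log2 ratio of -0.43, and Ptprc, H2-Aa and H2-Eb1 were at least 2-fold lower. The part of leukocytes in the levels of Psmb8, Psmb9 and Psmb10 was not tested. Genes that share interferon gamma induction or a locus with the inducible subunits, a list that holds the members Psme1 and Psme2, varied widely in level: 9 of 12 passed detection, against 45.7% of genes with a protein-coding transcript, and 10 could be compared, with 7 above 0 and a median log2 ratio of 0.08. Among them B2m, the light chain of class I antigen-presenting molecules, stood at 37.8 and 36.0 TPM, and Tapbp, which loads peptide onto them, at 15.05 and 13.22 TPM. Lower were Tap1, a subunit of the peptide transporter, at 0.56 and 0.43 TPM, and Nlrc5, an activator of class I genes, at 0.33 and 0.43 TPM.

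The 19S cap had much the same level as the core. Its 17 subunits had a median of 72.58 TPM in replicate 1 and 59.23 TPM in replicate 2 (65.9 ± 9.44, SD, n = 2). The 14 core subunits had a median of 78.05 and 65.12 TPM (71.6 ± 9.14, SD, n = 2). The core median was the higher in each library. Both medians were lower in replicate 2, so each SD holds a shift that both share and does not measure the difference within a library. In the ATPase ring, which unfolds the substrate, Psmc3 was the highest at 127.59 and 109.12 TPM and Psmc4 the lowest at 49.21 and 42.62 TPM. By RSEM, Psmc6 was the neighbour of Psmc4 in the order, stood at 51.68 and 43.83 TPM and overlapped it. Within each library Psmc6 was the higher. By kallisto the pair did not overlap, with Psmc6 at 131.9 and 97.45 TPM and Psmc4 at 60.72 and 46.97 TPM. Psmc1, Psmc2 and Psmc5 lay between 50.48 and 78.01 TPM by RSEM. In the rest of the base, the scaffold Psmd2 stood at 126.35 and 110.96 TPM, the ubiquitin receptor Psmd4 at 120.14 and 98.08 TPM, and the scaffold Psmd1 at 69.16 and 56.11 TPM.

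The lid removes ubiquitin chains before the substrate enters. By RSEM, Psmd8, a structural lid subunit, was its highest gene at 134.34 TPM in replicate 1 and 88.65 TPM in replicate 2. This was the widest gap between libraries of any constitutive subunit. Psmd14, the deubiquitinase of the lid, was the lowest at 32.69 and 28 TPM. Psmd13, next above it, stood at 40.15 and 36.36 TPM, so the pair did not overlap. The remaining lid genes Psmd3, Psmd6, Psmd7, Psmd11 and Psmd12 lay between 44.02 and 79.58 TPM.

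Among the activator genes, Psme4 had the highest RNA level. This gene, which encodes the activator PA200, stood at 71.38 TPM in replicate 1 and 69.97 TPM in replicate 2 (70.7 ± 0.997, SD, n = 2), above the other activators in both libraries. Psme3, the nuclear activator PA28 gamma, stood at 29.71 and 29.10 TPM. Psme1 and Psme2, the partners of the interferon-inducible activator PA28, stood at 26.90 and 28.52 TPM and at 24.37 and 21.95 TPM. Psmf1, which encodes PI31, an inhibitor of the core in vitro, stood at 7.79 and 8.04 TPM.

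Psme2 has a near copy, Psme2b, which is annotated as protein coding too, and reads can be told apart between them at few bases. The coding sequences are both 717 bases long, 99.3% identical, and differ at 5 bases. Shown from coding base 486 to 545, from the GENCODE M21 transcripts, is the stretch that holds 3 of them, in capitals.
Psme2: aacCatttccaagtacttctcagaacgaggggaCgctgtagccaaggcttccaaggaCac
Psme2b: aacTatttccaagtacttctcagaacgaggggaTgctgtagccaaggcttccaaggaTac
The estimated counts were 342.38 and 371.26 for Psme2 and 9.62 and 11.74 for Psme2b, which stood at 0.45 and 0.49 TPM. Both are fractional, so the split was made by the quantifier's model, and the CAST/EiJ allele of either gene is not in the reference.

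The 7 assembly chaperones among the members were far below the subunits they assemble. Pomp, a core chaperone outside the symbol rule, was not, at 60.28 and 60.52 TPM. The 7 members had a median of 5.60 TPM in replicate 1 and 5.23 TPM in replicate 2 (5.42 ± 0.262, SD, n = 2). Those of the core, Psmg1 to Psmg4, pair up to build the alpha ring. Psmg2 stood at 10.11 and 9.65 TPM and Psmg4 at 8.53 and 6.50 TPM. Psmg1, the partner of Psmg2, stood at 5.18 and 5.10 TPM, and Psmg3, the partner of Psmg4, at 3.75 and 3.41 TPM. In each partner pair 1 gene was higher in both libraries, and the ranges did not overlap.

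Of the chaperones of the ATPase ring, Psmd5 stood at 7.75 TPM in replicate 1 and 5.23 TPM in replicate 2. Psmd9 stood at 5.60 and 5.25 TPM and Psmd10, also known as gankyrin, at 5.15 and 4.33 TPM. By RSEM, Psmd5 and Psmd9 overlapped across libraries, and Psmd10 lay just below both. By kallisto, Psmd5 at 16.23 and 10.63 TPM did not overlap Psmd9 at 6.858 and 7.2 TPM. Psmc3ip, outside the particle, stood at 0.94 and 0.86 TPM by RSEM, from 28 and 27 counts.

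Between the libraries the proteasome genes were close to each other. The log2 ratio is replicate 2 over replicate 1 of counts scaled by TMM (trimmed mean of M values), for genes whose 2 counts sum to 50 or more, which left out Psma8, Psmb9, Psmb11 and Psme2b. Of the 46 genes tested, 0 were at least 2-fold apart, against 4.64% of 12969 genes, and 0 were at least 1.5-fold apart, against 13.7%. Precision rises with counts, and of the 39 with a summed count of at least 500, 0 were 1.5-fold apart, against 8.13% of genes at that depth. The SD of their log2 ratio was 0.15, against 0.39 over all genes of that depth. No p-value is given, since this is 1 library against 1 with no replicate check.

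**Figure D2:**
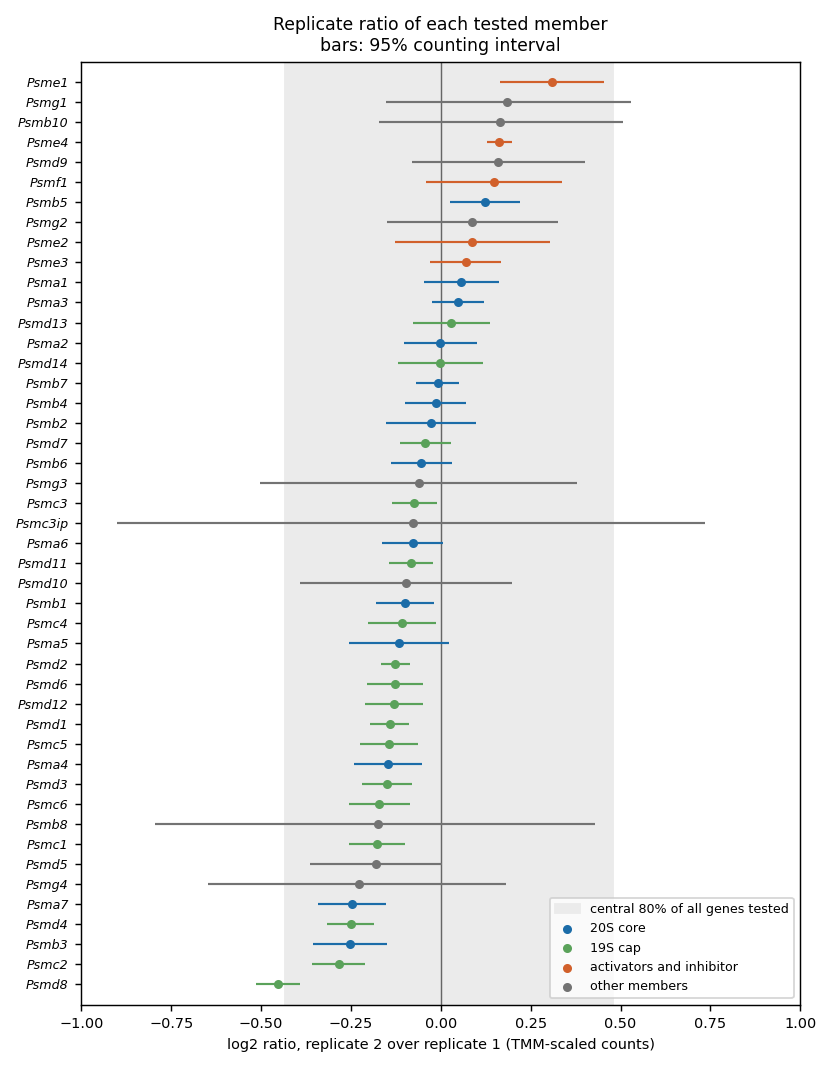
Log2 ratio of replicate 2 over replicate 1 (x axis, TMM-scaled counts) for the 46 proteasome genes tested, with bars for the 95% counting interval and a grey band for the central 80% of all genes tested, from -0.43 to 0.48. All but Psmd8, at -0.45, lie within the band, most 19S genes lie left of 0, and the 5 activators and inhibitor lie right of 0.

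Small differences ran one way within the particle. Of the 46, 33 were below 0 and 13 above, where 50.2% of all genes were below 0, and the median was -0.08 against -0.0009 over all genes. These counts depend on the processing. With spike-in totals 45 of 46 were below 0, against 76.4% of all genes, and with library totals 41 of 46, against 69.7%. Kallisto counts put 26 of 45 below 0, against 49.7% of all genes. The counting interval excluded equality for 21 of the 46, 18 of them lower in replicate 2, against 46.4% of all genes in either direction, so the share of members that excluded equality was close to the background. Among the constitutive subunits 27 of 31 were below 0, with a median of -0.11. The 19S genes accounted for 16 of these, with a median of -0.13 over 17, and the core genes for 11, with a median of -0.04 over 14.

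The lowest ratio belonged to Psmd8, with 4943 counts in replicate 1 and 3688 in replicate 2. It was 1.37-fold lower in replicate 2 (95% counting interval 1.31 to 1.43). After it came Psmc2, an ATPase, at -0.28, Psmb3 at -0.25, Psmd4 at -0.25 and Psma7, an alpha subunit, at -0.25. These 5 genes were 1.37-fold lower at most.

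At the other end stood Psme1, with 688 and 870 counts. It was 1.24-fold higher in replicate 2 (95% counting interval 1.12 to 1.37). Psmg1 followed at 0.18, Psmb10 at 0.16, Psme4 at 0.16 and Psmd9 at 0.16. Of these, only Psme4, with 12451 and 14231 counts, also had an interval that excluded equality, 1.12-fold higher (1.09 to 1.15). The third such gene was Psmb5, 1.09-fold higher (1.02 to 1.16), and it was the only constitutive subunit of this kind.

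The activators and the inhibitor lay on the other side of the median of all genes from most subunits, a difference that was not tested. All 5 tested were above the median of all genes, with a median of 0.15. A scaling factor moves all genes alike, so it changes the sign of a ratio and not its distance from the other genes. Scaling by spike-ins moved the median of all genes to -0.22 and left 1 of the 5 above 0, and scaling by library totals moved it to -0.15 and left 2 of 5. On the TPM scale 42 of the 45 detected genes were lower in replicate 2, and so were 68.9% of the 9989 nuclear protein-coding genes. A lower TPM in replicate 2 was thus common among genes at large.

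Transcript tables assign these levels to annotated forms, by each quantifier's estimate. The 50 genes have 278 annotated transcripts, of which 111 are protein coding. By RSEM the transcript with the highest mean over the libraries was protein coding in 44 of the 45 detected genes, and in 42 a coding transcript led in each library. The leading transcript held 90% or more of the gene's TPM in both libraries in 21. The median share of TPM on protein-coding transcripts was 97.1% and 97.2% by RSEM, and 90.6% and 94.0% by kallisto. By kallisto the transcript with the highest mean was not protein coding in Psma3, Psmb10, Psmc6, Psmd2 and Psmd13. No such value over all genes is given here, so these only describe the members.

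**Figure D3:**
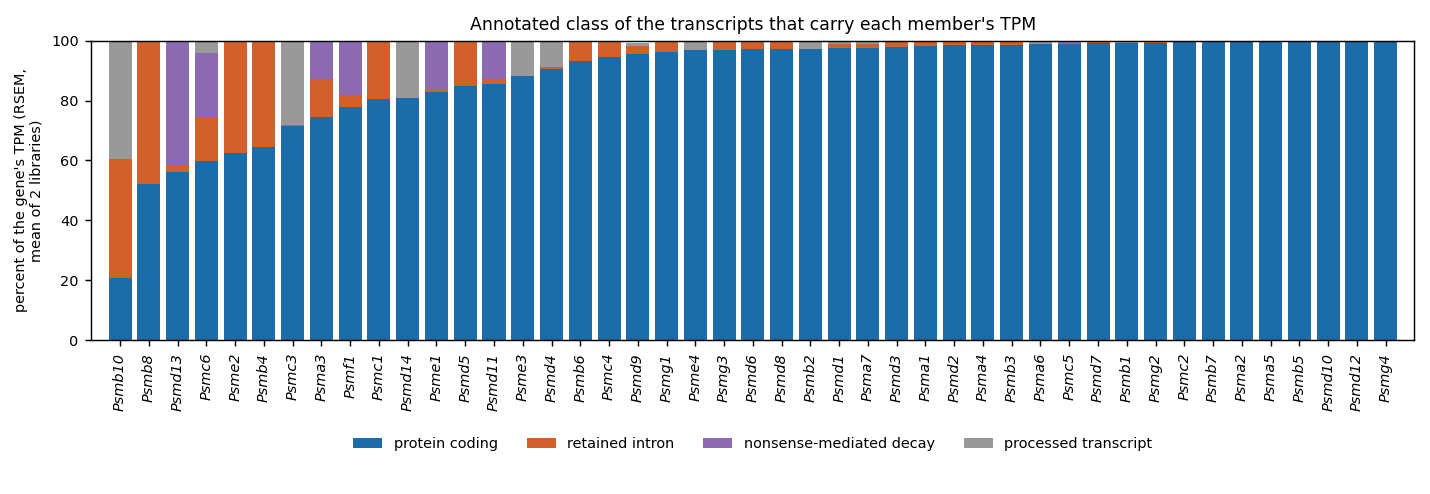
Percent of each detected gene's RSEM TPM (y axis, mean of the 2 libraries) on transcripts annotated as protein coding, retained intron, nonsense-mediated decay or processed transcript, for 45 genes ordered by the protein-coding share. Psmb10 is the lowest, with 24.1% and 17.4% of its TPM protein coding in the libraries, while most bars on the right are nearly all protein coding.

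The gene with a noncoding lead by the RSEM mean was Psmb10. Its most abundant transcript, Psmb10-203, a processed transcript of 426 bases with no annotated coding sequence, held 44.1% and 35.0% of its TPM. The protein-coding Psmb10-201 held 24.1% and 17.4%, at 1.89 and 1.48 TPM. By RSEM it had the highest level of the inducible genes and the lowest protein-coding share of the 45 detected members. Psmb8, from 50 and 45 counts, carried 37.8% and 58.2% of its RSEM TPM on retained-intron transcripts, and 1 of them, Psmb8-205, led in replicate 2. Kallisto differed: protein-coding transcripts held 81.4% and 76.6% of the Psmb8 TPM, and Psmb8-205 held 0% and 23.4%. Below the detection level, Psmb9 had most of its RSEM TPM on a transcript annotated for nonsense-mediated decay in replicate 2 (78.1%), from 9 counts.

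In 5 genes the most abundant transcript held under 50% in both libraries. Besides Psmb10 these were Psma3, Psmd13, Psmd5 and Psme2. Psma3-204 held 46.7% and 46.1%. In Psmd13 the coding Psmd13-208 held 42.3% and 41.2%, next to Psmd13-211, annotated for nonsense-mediated decay, at 42.3% and 41.0%, which led in replicate 1 by 16.99 against 16.98 TPM. Psmd5-202, a coding model of 555 bases, held 48.5% and 37.2%, and the longer Psmd5-201 of 4397 bases held 37.4% and 46.7%, so the order of the pair turned between libraries. In Psme2 the coding Psme2-201 held 45.9% and 44.6%, and Psme2-203, a retained-intron model of 185 bases, held 38.5% and 34.4%. Since TPM divides by length, few reads on so short a model give a large share.

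The other quantifier, kallisto, gave higher levels for most members, as it did for other genes, and often placed them on other transcripts. Kallisto TPM over RSEM TPM had a median of 1.42 and 1.37 over the 45 detected members, against 1.38 and 1.30 over nuclear protein-coding genes. The ratio ran from 0.808 to 2.55. At least 2-fold in both libraries were Psmc6 (2.55 and 2.22) and Psmd5 (2.09 and 2.03), and below 1 in both were Psma2 and Psme2. In Psmc6 kallisto placed 38.7% and 35.5% of the TPM on the processed transcript Psmc6-206, where RSEM placed 62.8% and 56.6% on the coding Psmc6-201. Over the 31 constitutive subunits the Spearman rho of the quantifiers was 0.913 and 0.884, a description over genes measured from the same reads. Some rankings changed. By kallisto the highest member was Psma3, at 230.3 and 198.9 TPM, above Psmb7 at 215.5 and 180.8 TPM. The lowest alpha ring gene was Psma2, at 22.84 and 19.93 TPM, and not Psma5, at 42.92 and 32.39 TPM. In replicate 2, though not in replicate 1, Psmd11 at 117.0 TPM was above Psmd8 at 112.3 TPM.

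**Figure D4:**
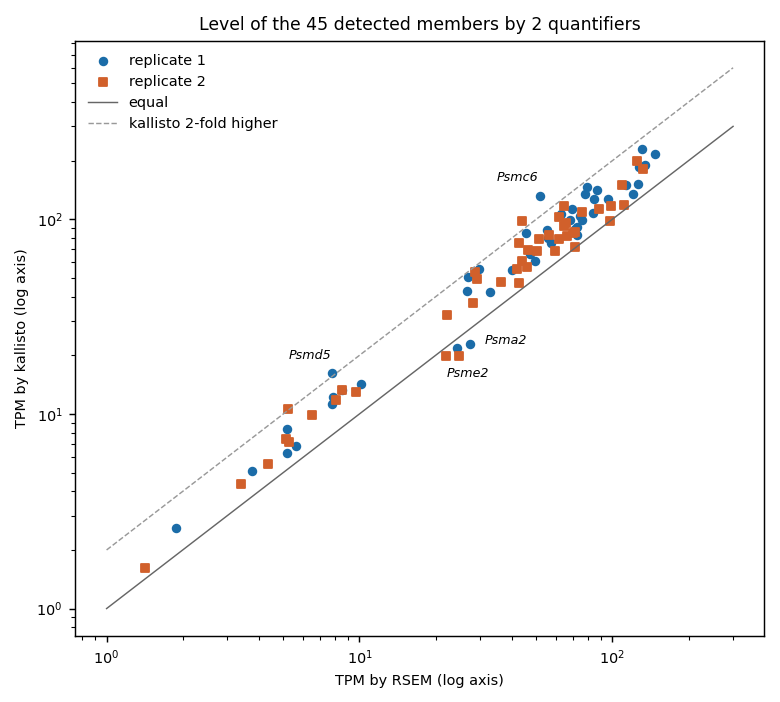
Kallisto TPM (y axis, log scale) against RSEM TPM (x axis, log scale) for the 45 detected proteasome genes, with circles for replicate 1, squares for replicate 2, a solid line at equality and a dashed line where kallisto is 2-fold higher. Psmc6 and Psmd5 lie on or above the dashed line in both libraries, and Psma2 and Psme2 lie below equality.

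The quantifiers named the same leading transcript in 34 of the 45 genes and a different one in 11. In Psmd8 RSEM placed 96.4% and 96.9% on Psmd8-202, and kallisto 69.5% and 71.3% on Psmd8-201, which RSEM left at 0 TPM. In Psmb1 RSEM placed 88.4% and 93.2% on Psmb1-201, and kallisto 97.3% and 98.4% on Psmb1-204. In Psma3 kallisto placed only 5.24% and 4.28% on coding transcripts, against 76.4% and 72.6% by RSEM. A leading transcript is therefore given here only as a tool's estimate. The low ratio of Psmd8 did not depend on this, since kallisto counts gave -0.44 for the gene.

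Several proteasome genes have processed pseudogenes, intronless copies to which the same reads can be assigned. Of the 50 coding sequences, 17 had another annotated gene with at least 90% identity over at least 50% of their length, and 15 had such a pseudogene, 28 pseudogenes in all. Counts were at least 3 in both libraries for 8 pseudogenes and at 0 in both for 10. The estimated counts of 11 members were fractional, Psma3, Psma4, Psma5, Psmb3, Psmb5, Psmc1, Psmd1, Psmd2, Psmd11, Psme2 and Psme2b, which happens when reads fit more than 1 gene. Levels of these 11 are less certain than their counts alone would make them.

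The share of start regions that hold the searched motifs was close to that of all genes. RefSeq windows on GRCm38.p6, from 250 bases before to 50 after the start, were found for 42 of the 50 genes, in 45 windows. The letters TGACNNNGC are the core of the antioxidant response element bound by NFE2L1 and NFE2L2. They occurred on either strand in 6 of 45 windows (13.3%), against 12.4% of 32851 windows. CCAAT, the NF-Y box, occurred in 15 (33.3%) against 37.4%, and GGTGGCAAA, the element of yeast proteasome genes, in 0 against 0.219%. Base composition was higher: the median GC content was 57.3% against 52.7%, and the median number of CpG dinucleotides 19 against 7. A match is a string of letters and was not tested as a binding site.

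Shown are all 6 windows with TGACNNNGC, on the gene's strand from RefSeq on GRCm38.p6, to let the matches be compared. Capitals mark the motif, which lies on the opposite strand in Psmc6, Psmd12 and Psme4.
Psmb5, chr14:54618023-54618052, minus strand: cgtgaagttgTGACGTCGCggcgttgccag
Psmb6, chr11:70525338-70525367, plus strand: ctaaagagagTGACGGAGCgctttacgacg
Psmc6, chr14:45329587-45329616, plus strand: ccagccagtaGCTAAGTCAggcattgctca
Psmd12, chr11:107479278-107479307, plus strand: tctGCTGTGTCAcatttgcccccctcagac
Psmd9, chr5:123228149-123228178, plus strand: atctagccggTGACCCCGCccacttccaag
Psme4, chr11:30771758-30771787, plus strand: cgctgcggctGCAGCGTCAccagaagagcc
Positions are of the first capital base, read on the gene's strand and relative to the RefSeq start base. They were -47 in Psmb5, -9 in Psmb6, -227 in Psmc6, -247 in Psmd12, -31 in Psmd9 and -7 in Psme4. In Psmc6, Psmd12 and Psme4 that base pairs with the last letter of the motif. Levels of these 6 genes ran from 5.25 TPM in Psmd9 to 113.68 TPM in Psmb6. Genes that share the letters thus did not share a level. Their log2 ratios lay on both sides of 0, from -0.17 in Psmc6 to 0.16 in Psme4.

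Some proteasome genes share their start region with a neighbour on the other strand. A protein-coding neighbour on the opposite strand whose start lies within 1000 bases was found for 12 of the 50 (24.0%), against 10.8% of 21901 genes with a protein-coding transcript. Psmc2 starts 32 bases from Dnajc2, a ribosome-bound chaperone, and Psma2 and Psmc5 each start 75 bases from a neighbour, Mrpl32 and Ftsj3. Dnajc2 stood at 12.89 and 10.62 TPM against 68.14 and 50.48 TPM for Psmc2, and Mrpl32, a mitochondrial ribosomal protein, at 19.52 and 18.25 TPM against 27.39 and 24.66 TPM for Psma2. Psmb9 and Tap1 start 211 bases apart on chromosome 17, and both were low. These examples were chosen after their values were seen.

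The other genes of the pathway were present throughout. Of 34 listed, 33 were matched by symbol, and all 33 passed detection, at a median level of 39.7 and 37.8 TPM. Of these, 0 were at least 2-fold apart, 21 were below 0 and 12 above, with a median log2 ratio of -0.09. Particle proteins with other symbols lay within the range of the members or close to it: Adrm1, a ubiquitin receptor of the base, stood at 66.34 and 49.83 TPM, and Sem1, the smallest lid subunit, at 24.93 and 25.11 TPM. Pomp, the chaperone that matures the core, stood at 60.28 and 60.52 TPM, well above the other assembly chaperones.

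Ubb, which encodes chains of ubiquitin, stood at 517.2 TPM in replicate 1 and 417.8 TPM in replicate 2. Nfe2l1, the transcription factor that raises proteasome genes when the proteasome is blocked, stood at 178.9 and 201.7 TPM, with a log2 ratio of 0.15. Its relative Nfe2l2 stood at 21.05 and 14.99 TPM, with a log2 ratio of -0.34. By RSEM, Nfe2l1 was therefore above every one of the 50 proteasome genes in both libraries. Ecpas, a scaffold that holds core and cap together, stood at 139.8 and 132.1 TPM.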

How the data were processed

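Total RNA-seq of gastrocnemius from 2 libraries of 1 group was used. Deposited notes name mm10 and GENCODE M21. The aligner and quantifier versions were not given in the sources used here. Per the file headers, the authors' gene tables hold RSEM expected counts and TPM, and a further deposited table holds kallisto estimated counts and TPM per transcript, summed here per gene. Posterior mean TPM from RSEM served as an alternative. Deposited FPKM values, percent of gene TPM and interval columns were not used. Reads of F1 mice were quantified on the C57BL/6J reference, and its effect was not tested.

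The members and gene lists were chosen with earlier results of these data known. Expected counts were rounded, and log2 ratios used edgeR 4.0.16 (TMM, prior count 2, summed count of at least 50) in R 4.3.3. Intervals of a fold (95%) are exact, from the conditional binomial with effective library sizes, and limits of a count of 0 use 3 counts; both cover counting error only. Detection means 1 TPM in both libraries. Copies were sought with BLAST 2.17.0, and Python 3.11.15 did the rest. Ratios were tested on simulated data.

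Named with values are the highest and lowest gene of each role, all catalytic, inducible, activator, inhibitor and chaperone genes, the 5 largest and 5 smallest log2 ratios, genes at least 2-fold apart between quantifiers in both libraries, and genes whose leading RSEM transcript is not protein coding or holds under 50% of TPM. Alternatives were other scalings (DESeq2 1.42.0 size factors, spike-ins, library totals), count filters, a prior count of 0.5, kallisto, posterior means, TPM minimums and denominators, and leaving out each library. One listed pathway gene is not reported here by name.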

Additional observations from a re-analysis of the deposited data

Results flagged for a closer look

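Pseudogene copies of 4 core subunits drew more than 100 expected counts in both libraries, a signal in genes outside the members. Gm13835, identical to Psma3 over 86.5% of its coding sequence, had 257.11 counts in replicate 1 and 169.72 in replicate 2, while kallisto listed it at 0 TPM in both. Gm8394, 98.9% identical to Psma5, had 169.79 and 118.39 counts. AC114990.1, a copy of Psmb3, had 147.51 and 141.65 counts. Its level was 9.99 and 8.47 TPM in the RSEM table but 0.381 and 0.165 TPM in that of kallisto. Gm3375, a copy of Psmb5, had 136.09 and 137.01. The parent genes Psma3, Psma5, Psmb3 and Psmb5 all had fractional counts, and whether these reads come from the pseudogenes was not tested.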

How the results depend on the processing

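Of 28 values recomputed under settings other than leaving out a library, 20 stayed within the spread between replicates, the counting interval or, for counts, 1.5 times, 8 moved and 0 reversed. With kallisto the inducible share was 3.82%, the median level 68.4 TPM and the SD of log2 TPM over the constitutive subunits 0.71; posterior means gave a share of 3.54%. Over nuclear protein-coding TPM alone the median level was 101.5 TPM. The median log2 ratio was -0.30 with spike-in totals and -0.22 with library totals, settings that move the median of all genes to -0.22 and -0.15. With a summed count of at least 1, 1 of 49 members was 2-fold apart, Psmb9 at -1.08, against 11.45% of 23688 genes. Leaving out each library, which with 2 libraries only gives the value of the other, gave an inducible share of 3.13% to 3.28%, a median of 43.28 to 50.45 TPM, a share of nuclear protein-coding TPM of 0.484% to 0.560%, an SD of 0.65 to 0.66 and 45 to 46 genes detected. Depth limits Psma8, Psmb8, Psmb9, Psmb11, Psme2b and Psmc3ip, each with 50 counts or fewer in both libraries.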
